A study of Homo sapiens with 8 samples.

Results

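RBFOX2 binding was examined in the longest human protein-coding genes, those whose annotated span is at least 500 kb. A called peak was taken as a member when it lay on chromosomes 1 to 22 and its midpoint fell inside exactly 1 RefSeq gene span, that span being protein-coding and at least 500 kb long. This selected 68430 of the 1118316 called peaks (6.12%), with 16389, 17065, 17698 and 17278 in replicates 1 to 4. The annotation holds 303 such genes, from 500779 to 2473620 bp with a median of 721268 bp. Of these, 205 held at least 1 member peak and 98 held none. The length limit cuts through a continuum: the genes just inside it, PPFIA2 (501.376 kb), SPOCK3 (501.562 kb) and ERC1 (505.975 kb), had 8, 29 and 265 called peaks over the 4 lists, and those just outside it, ITPR2 (497.843 kb), CPQ (498.26 kb) and DIAPH3 (498.346 kb), had 130, 1 and 504.

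The data are an eCLIP experiment in HEK293T, a line derived from human embryonic kidney. Cells were crosslinked with ultraviolet light of 254 nm at 400 mJ per square centimetre, RBFOX2 was immunoprecipitated (IP), and each input is a 2% portion of the same material. All 8 libraries, 4 IP and 4 input, carry no treatment other than crosslinking, and the labels name no genotype. Each deposited list sets 1 IP against the input of the same number and gives every called peak a log2 fold of IP over input and a value that was taken to be a −log10 p. The labels do not say whether the replicates were separate cultures, so the tests measure the spread between these 4 lists.

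RBFOX2 is a splicing regulator that binds RNA through an RNA-recognition motif with a preference for the sequence GCAUG, which is GCATG in DNA letters. It binds mostly in introns, where the position of a site relative to an exon affects whether the exon is included. Very long genes are nearly all intron, take many hours to transcribe, and include many genes of neuronal adhesion and signalling that a kidney-derived line need not express.

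GSE1 alone held most of the strong binding, nearly all of it after an annotated start site inside the gene. The annotated promoter window at that inner start, from 250 bases before to 50 bases after it, is shown because called peaks of all 4 lists lie in it and the enriched part of the gene follows it. Of the 588 RefSeq windows (GRCh38.p14) of 251 long genes, 9 held member peaks of all 4 lists, and the 3 with the highest mean log2 fold are printed for comparison. Each runs 5′ to 3′ on the gene strand, with GCATG in capitals.
GSE1, chr16:85613072-85613371, plus strand: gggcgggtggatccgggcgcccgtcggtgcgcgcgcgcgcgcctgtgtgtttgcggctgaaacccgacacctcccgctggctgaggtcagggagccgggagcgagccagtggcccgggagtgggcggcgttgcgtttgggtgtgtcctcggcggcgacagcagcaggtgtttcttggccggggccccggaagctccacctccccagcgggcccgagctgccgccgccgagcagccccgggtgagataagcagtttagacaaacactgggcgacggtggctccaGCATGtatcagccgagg
PCDH9, chr13:67230287-67230586, minus strand: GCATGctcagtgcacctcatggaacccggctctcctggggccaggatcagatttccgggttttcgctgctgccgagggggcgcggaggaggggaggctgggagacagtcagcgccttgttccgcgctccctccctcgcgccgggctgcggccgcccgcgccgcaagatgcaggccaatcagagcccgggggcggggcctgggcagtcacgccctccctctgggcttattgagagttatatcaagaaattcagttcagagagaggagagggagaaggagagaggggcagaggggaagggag
ADK, chr10:74176513-74176812, plus strand: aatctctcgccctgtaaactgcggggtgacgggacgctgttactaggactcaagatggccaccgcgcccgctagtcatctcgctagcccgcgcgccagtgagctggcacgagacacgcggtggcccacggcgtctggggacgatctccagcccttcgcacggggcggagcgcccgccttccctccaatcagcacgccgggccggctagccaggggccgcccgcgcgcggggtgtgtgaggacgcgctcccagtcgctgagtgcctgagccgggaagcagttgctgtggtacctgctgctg
In the GSE1 window, GCATG occupies 85613355 to 85613359, just after the inner start at 85613322, and the PCDH9 window opens with it. The ADK window has none on the gene strand. GCATG was present on the gene strand in 22.3% of the long-gene windows and in 19.5% of all 33725 windows of the same length (29.3% and 29.4% on either strand), so its presence in a window is common and is given as a description.

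The GSE1 window carried a pair of peaks in each list. The upstream peak spanned 85613211-85613294, 85613233-85613282, 85613231-85613306 and 85613237-85613290 in lists 1 to 4, and its log2 fold was 3.32, 2.00, 2.00 and 1.17. The downstream peak began at 85613356, 85613361, 85613353 and 85613358, from 2 bases before the GCATG in list 3 to 2 bases after it in list 2, and its log2 fold was 1.81, 0.0014, 1.22 and 1.58. The upstream peak was above input in every list, while the downstream peak was at input level in list 2. No peak of the window reached the −log10 p of 3 used below, the highest per list being 1.93, 0.66, 1.18 and 1.11. In the PCDH9 window, the promoter of a protocadherin, the highest log2 folds were 1.58, 1.00, −0.32 and −0.0005. In the window of ADK, which encodes adenosine kinase, they were 1.74, −0.58, 1.00 and −0.0005. In both of these the lists fell on both sides of 0.

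Strong binding was rarer in very long genes than in shorter ones. The term enriched is used for peaks whose log2 fold and −log10 p were both at least 3, a rule met by 0.818% of all called peaks. In the long genes 44, 49, 44 and 45 peaks met it in lists 1 to 4. Their share was 0.268%, 0.287%, 0.249% and 0.260% (mean 0.266% ± 0.0162, SD, n = 4). In shorter protein-coding genes, with 848127 peaks, it was 0.892%, 0.873%, 0.815% and 0.792% (0.843% ± 0.0474). The groups did not overlap. The difference was −0.577 percentage points ± 0.0385 (SD, n = 4), lower in 4 of 4 lists, and the exact two-sided sign-flip permutation test gave p = 0.13, the smallest that 4 lists allow (2 of 16 sign patterns). Without GSE1 the long genes held 0.113% ± 0.0226 enriched peaks and the difference was −0.729. Against genes of 100 to 500 kb alone the difference was −0.193 ± 0.0279.

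The enriched share was lower in every length class above 100 kb than in the classes under 100 kb, and lowest in genes over 1000 kb. It was 1.29% ± 0.137 in genes under 10 kb, 1.14% ± 0.0863 from 10 to 50 kb and 1.15% ± 0.0420 from 50 to 100 kb (SD, n = 4 for each). It was 0.585% ± 0.0672 from 100 to 200 kb and 0.314% ± 0.0127 from 200 to 500 kb. The 3 classes under 100 kb overlapped one another, and both longer classes lay below all of them. Genes of 500 to 1000 kb held 0.345% ± 0.0142, which became 0.141% ± 0.0235 without GSE1. In the 41 genes over 1000 kb with a member peak, 6 of 17306 peaks were enriched, with shares of 0.0236%, 0.0937%, 0.0227% and 0% in lists 1 to 4.

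**Figure D1:**
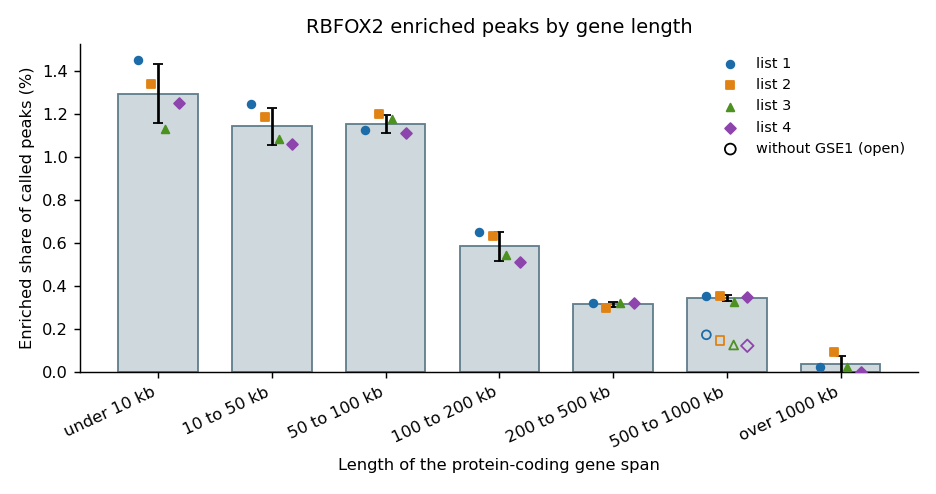
Enriched share of called peaks (%, y axis) by length of the protein-coding gene span (x axis). Bars are means of the 4 lists, error bars the SD, filled points the lists, and open points genes of 500 to 1000 kb without GSE1; the share falls from 1.29% under 10 kb to 0.0350% over 1000 kb.

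The mean log2 fold of all called peaks was also lower in the long genes. It was 0.11, 0.078, 0.069 and 0.079 in lists 1 to 4 (0.085 ± 0.020, SD, n = 4) against 0.22, 0.19, 0.15 and 0.18 in shorter genes (0.19 ± 0.031). The groups did not overlap, and the difference was −0.10 ± 0.016 (exact sign-flip permutation test, p = 0.13, the smallest possible). Other measures moved with this difference. A −log10 p of 0 was carried by 82.3% ± 7.96 of peaks in long genes and 73.4% ± 8.12 in shorter ones, and the single commonest fold of a list by 52.5% ± 1.79 against 40.2% ± 1.17. A called peak overlapped one of another list in 26.0% ± 0.579 of cases in long genes and 36.8% ± 0.690 in shorter ones. Among peaks with a −log10 p above 0, the difference in mean log2 fold was −0.0034 (p = 1, exact sign-flip permutation test), while the enriched share was still lower, at 1.76% ± 0.786 against 3.40% ± 1.03. Log2 folds below −0.5 made up 21.6% ± 0.482 of peaks in long genes and 23.5% ± 0.578 in shorter genes. The part that read depth plays in these values was not tested, since the lists give no read counts and the depth is unknown.

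Nearly all peaks lay on the transcribed strand. All 182 enriched member peaks were on the gene strand, and 115 of the 116 genes with at least 20 peaks in every list had at least 95% of their peaks on it.

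Peaks were spread unevenly among the genes. A gene with a member peak held between 1 and 2202 peaks over the 4 lists, with a median of 176, and the top 10 genes held 24.4% of member peaks. FHIT, a dinucleotide hydrolase at a common fragile site, held the most, with 559, 527, 560 and 556 peaks in lists 1 to 4, of which 1 was enriched. AUTS2, a component of a Polycomb complex, held 527, 541, 531 and 526, also with 1 enriched. GSE1, next in number of peaks, held 107 enriched ones, so genes with similar numbers of called peaks differed widely in enriched peaks. Per 100 kb of span, GSE1 held the most peaks, 103 ± 5.25 (SD, n = 4), followed by the Arf GTPase-activating protein gene AGAP1 with 72.6 ± 3.08. MECOM, a zinc-finger transcription factor, held 47.9 ± 0.916, the glutamate receptor delta subunit gene GRID1 held 44.9 ± 1.41, and AUTS2 held 44.5 ± 0.573. The last of these overlapped GRID1 in range, whereas GSE1 and AGAP1 stood apart from each other and from the rest. Among genes with at least 20 peaks in every list, the lowest densities were 1.26 ± 0.228 in MACROD2, an ADP-ribose hydrolase, 2.33 ± 0.250 in CCSER1 and 2.52 ± 0.439 in RANBP2. The RefSeq table gives RANBP2 a span of 1122.82 kb that other genes share, and 113 of its 1379 peaks had no second span at the midpoint.

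The longest genes were almost empty. RBFOX1, the paralogue of RBFOX2 and the longest of all at 2473.62 kb, had 0 called peaks in all 4 lists, also when peaks in a second span were admitted. CNTNAP2, a neurexin-family adhesion protein of 2304.198 kb, had 1, 0, 2 and 2 peaks. PTPRD, a receptor phosphatase of 2298.757 kb, had 5, 5, 7 and 5, and the synaptic scaffold gene DLG2 had 5, 4, 4 and 2. CSMD1 had 0, and 8 over the 4 lists when a second span was admitted. None of these peaks was enriched. Expression of these genes was not analysed here, so an unexpressed RNA and an unbound RNA cannot be told apart.

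Enriched peaks of the 4 lists that overlapped by at least 1 nt on a strand were merged into regions, and the long genes held 87 of them. Of these, 45 were enriched in 1 list, 21 in 2, 8 in 3 and 13 in all 4. The share in all 4 lists was 14.9%, against 16.4% of all 3371 enriched regions, and the share in 1 list was 51.7%, against 52.8%. With GSE1 included, the recurrence of enriched regions in long genes was thus near that of the whole data. Without GSE1, 4 of 38 regions were enriched in all 4 lists and 18 of 38 in 1 list. GSE1 held 49 of the 87, followed by DOCK3 with 6, CEP112 with 5 and GRIP1 with 4. DOCK1, GMDS and SYN3 held 3 each, MAGI1 and TRAPPC9 held 2 each, and 10 other genes held 1 each. Among those 10, the region of RAD51B, a homologous recombination gene, was enriched in 2 lists (log2 fold 4.65 in list 2 and 4.13 in list 3) and the other 9 in 1 list.

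GSE1 encodes a coiled-coil protein found with the KDM1A and HDAC corepressors. Its span covers 506.689 kb of chromosome 16 (85169512 to 85676200, plus strand), close to the length limit. It had 554, 510, 491 and 525 called peaks in lists 1 to 4, of which 23, 27, 27 and 30 were enriched. Together these were 107 of the 182 enriched member peaks (58.8%), from a gene with 3.04% of member peaks. Within GSE1, 5.16% ± 0.697 of called peaks were enriched (SD, n = 4). The 4 lists were similar, and in each of them GSE1 supplied more than the other long genes together, whose enriched peaks numbered 21, 22, 17 and 15.

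The enriched peaks of GSE1 followed the inner start shown above, which lies 443.81 kb into the span, or 87.6% of its length. This landmark was chosen after the values were seen, so the comparison is a description with no test. In the 443.81 kb before it, the mean log2 fold was 0.84, 0.87, 0.76 and 0.96 in lists 1 to 4 (0.86 ± 0.082, SD, n = 4), and 0, 0, 1 and 0 peaks were enriched. In the 62.879 kb after it, the mean log2 fold was 2.25, 2.39, 2.17 and 2.45 (2.31 ± 0.13), and 23, 27, 26 and 30 of 150, 140, 147 and 146 peaks were enriched (18.2% ± 2.25). The stretches did not overlap in any list. Thus 106 of 107 enriched peaks came after the inner start. The first enriched region there began 0.371 kb downstream, and 48 of the 49 regions lay in 38.006 kb, ending 24.502 kb before the end of the span. Peaks before the inner start were themselves above input on average in every list.

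**Figure D2:**
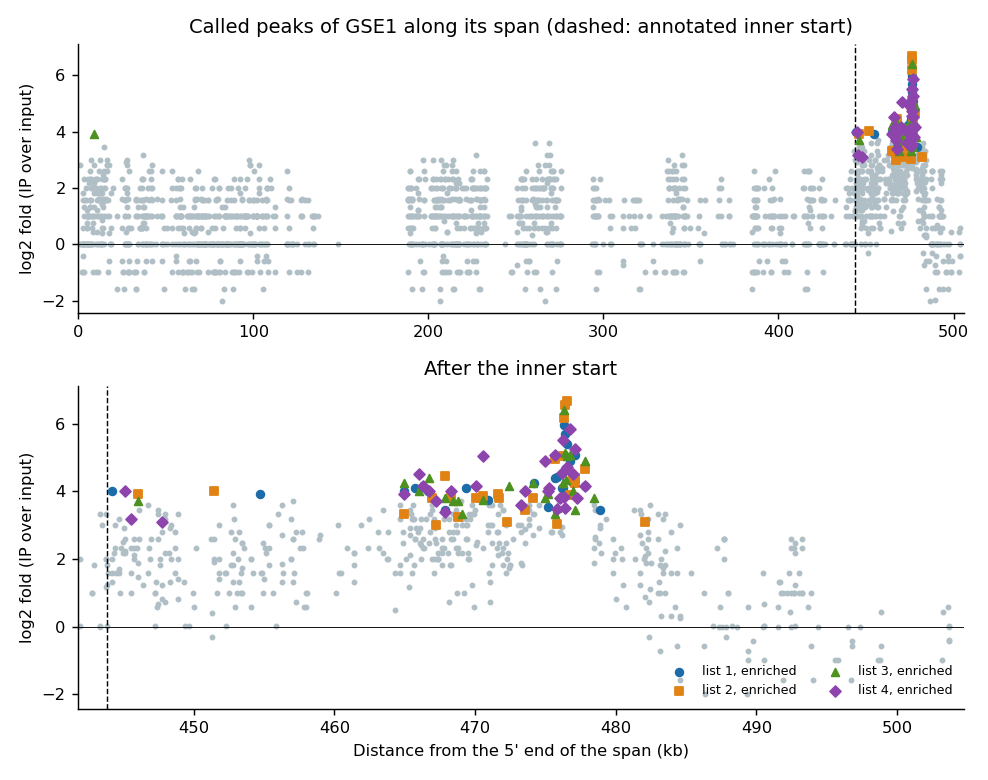
Log2 fold of IP over input (y axis) of every called peak of GSE1 against distance from the 5′ end of the span in kb (x axis), over the whole span and after the inner start (dashed line). Coloured symbols are enriched peaks by list and grey points the others; 106 of 107 enriched peaks lie after the inner start.

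The strongest site in any long gene was in GSE1 at chr16:85645734-85646069. Its highest enriched log2 fold was 5.95, 6.67, 6.39 and 5.52 in lists 1 to 4 (6.14 ± 0.50, SD, n = 4), with a −log10 p between 13.1 and 29.0. The neighbouring region at chr16:85646207-85646317 had 4.91, 3.88, 5.09 and 5.86 (4.93 ± 0.81). In all, 9 regions of GSE1 were enriched in every list, within 12.954 kb, and 7 of them lay in 2.242 kb from 85645141 to 85647382, 31.819 kb after the inner start. The other 7 had mean log2 folds between 3.61 and 4.55.

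The remaining 4 regions enriched in every list lay in 4 other genes. In DOCK3, an exchange factor for the GTPase Rac, chr3:51277785-51278006 on the plus strand had log2 folds of 4.39, 3.70, 4.14 and 5.75 (4.50 ± 0.88, SD, n = 4), with a −log10 p from 11.8 to 14.9. In CEP112, a centrosomal protein gene, chr17:65970247-65970405 on the minus strand had 4.46, 4.32, 3.70 and 4.17 (4.16 ± 0.33). In GMDS, the dehydratase that starts the synthesis of GDP-fucose, chr6:2201215-2201333 on the minus strand had 4.17, 3.91, 4.25 and 4.17 (4.12 ± 0.15). In GRIP1, a PDZ scaffold of glutamate receptors, chr12:66884089-66884202 on the minus strand had 3.64, 4.00, 3.32 and 4.58 (3.89 ± 0.54). The means of these 4 regions differed by less than the spread of the lists in DOCK3. No exon annotation was given, so whether a region is exonic or intronic is not stated.

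**Figure D3:**
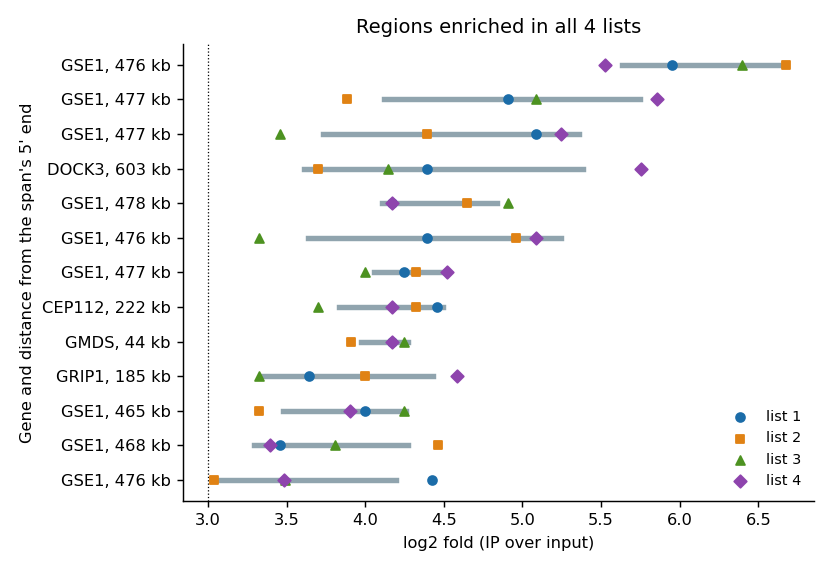
Log2 fold of IP over input (x axis) in each list for the 13 regions of long genes enriched in all 4 lists, named by gene and distance from the 5′ end in kb (y axis). Points are lists, grey bars the mean ± SD and the dotted line the fold limit of 3; the GSE1 site with a mean of 6.14 stands above the rest.

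In several genes the enriched regions sat together in a very short stretch. All 5 regions of CEP112 lay within 1.195 kb of its 556.597 kb span, between 39.8% and 40.0% of the way from the 5′ end. All 3 of GMDS lay within 1.082 kb of 621.8 kb, at 7.13% to 7.29%. In SYN3, a synapsin gene, all 3 lay within 1.224 kb of 550.562 kb, at 54.1% to 54.3%. The 4 of GRIP1 lay within 4.441 kb of 721.908 kb, and the 2 of TRAPPC9, which encodes a vesicle-tethering subunit, within 1.001 kb of 730.855 kb. The 6 regions of DOCK3 fell into a pair of such stretches far apart in the gene, with 3 regions in 0.628 kb from 50707595 and 3 in 0.677 kb from 51277433. The 3 regions of DOCK1, another Rac exchange factor, were spread over 337.452 kb and the 2 of MAGI1, a junction scaffold, over 144.436 kb.

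Every region with a called peak in all 4 lists was then tested against a log2 fold of 0 with limma, fitted over all 49493 regions. At a Benjamini-Hochberg adjusted p of at most 0.05, 21.1% of all regions were higher and 1.81% lower. In long genes 322 of 1718 were higher (18.7%) and 8 lower (0.466%). GSE1 gave 91 of its 144, or 63.2%, and without it 231 of 1574 (14.7%) were higher, below the background share. Higher regions came from 69 of the 137 long genes with a tested region. By count, GSE1 was followed by DOCK1 with 13 of 46, AGAP1 with 11 of 68, GRID1 with 11 of 37, AUTS2 with 10 of 58 and DOCK3 with 10 of 23. Such counts depend on how many regions were tested, and the shares of AGAP1 and AUTS2 lay below the 21.1% of all regions. Larger shares were found in some genes with fewer tested regions, such as SYN3 (4 of 5), CEP112 (6 of 10) and GRIP1 (7 of 14). The 13 regions enriched in every list had been selected by a log2 fold of at least 3 in each. Their limma result was thus nearly fixed in advance and is no separate evidence. All 13 were called higher, with limma adjusted p from 0.00408 to 0.00487. These calls need the full set of lists: without list 1, 2 or 4 no long-gene region was called by limma (458, 464 and 450 were higher at an unadjusted p under 0.05), and without list 3, 79 were.

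A region of TRAPPC9 at chr8:140110126-140110303 was among the highest in this fit without being enriched in every list. Its log2 folds were 4.46, 4.46, 3.32 and 4.58 (4.21 ± 0.59, SD, n = 4; limma adjusted p = 0.00433), and list 3 missed the enrichment rule with a −log10 p of 2.20. The lowest region lay in EPHA6, an ephrin receptor gene, at chr3:97049080-97049164, with log2 folds of −2.0, −1.58, −2.32 and −2.0 (−1.98 ± 0.30; limma adjusted p = 0.00826). ROBO1, TTC28, FHIT, DOCK3, MDGA2, CREB5 and ADK had 1 lower region each, with mean log2 folds between −1.40 and −0.90. Each of these 8 genes with a lower region also held at least 1 higher region. As a description of agreement, Spearman's rho between lists averaged 0.387 over the 6 pairs across the 1718 regions (0.367 to 0.411), 0.573 across the 144 regions of GSE1 and 0.323 without them. Regions are not independent replicates.

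At the level of whole genes, fewer long genes than genes overall were above input. Of 2935 protein-coding genes with at least 20 called peaks in every list, limma called 34.0% higher and 9.51% lower by the mean log2 fold of their peaks. Of the 116 long genes among them, 19 were higher (16.4%), 4 were lower (3.45%) and 93 were not called. Their median was 0.051, against 0.080 over all tested genes. When values were centred on the median over all genes, 8 long genes were higher and 16 lower, so the balance between directions depends on the zero of the scale. Leaving out 1 list gave 8, 11, 12 and 10 higher genes without lists 1 to 4.

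GSE1 had the highest mean log2 fold, at 1.22, 1.28, 1.18 and 1.37 in lists 1 to 4 (1.27 ± 0.084, SD, n = 4; limma adjusted p = 7.55e-08). CEP112 followed with 0.91, 0.66, 0.57 and 0.77 (0.73 ± 0.15; limma adjusted p = 1.26e-05). SYN3 had 0.47, 0.50, 0.65 and 0.46 (0.52 ± 0.086; limma adjusted p = 5.51e-05). GSE1 lay above every other tested long gene in all lists, whereas SYN3 overlapped both CEP112 and DOCK1. DOCK1 had 0.61, 0.48, 0.43 and 0.43 (0.49 ± 0.086; limma adjusted p = 8.84e-05), TRAPPC9 averaged 0.36 ± 0.096 and DOCK3 0.35 ± 0.042. AGAP1 and GRID1, both dense in peaks, averaged 0.29 ± 0.073 and 0.34 ± 0.085 and were called higher. These 8 genes were called higher whichever list was left out and also after centring. The other 11 higher genes had smaller folds and were lost without at least 1 list and after centring. Among them, MAGI1 (0.19) was lost without list 1, 3 or 4, and MACROD2 (0.18) without any one of the 4.

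Several genes with at least 1 enriched region were not called as a whole. GMDS had mean log2 folds of 0.050, 0.15, 0.083 and 0.061 (0.086 ± 0.045, SD, n = 4; limma adjusted p = 0.238), and GRIP1 had 0.072, 0.064, 0.052 and 0.12 (0.078 ± 0.031; limma adjusted p = 0.281). RAD51B averaged −0.024 ± 0.042, AUTS2 0.040 ± 0.052 and the glypican gene GPC6 −0.064 ± 0.057. None of these 5 passed the test, although GMDS and GRIP1 were slightly above 0 in every list. A gene that is not called is not thereby shown to be at input level. In them, the mean over all called peaks did not show the few enriched ones.

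At the low end, 4 long genes were called lower. LRP1B, of the LDL receptor family, had −0.24, −0.25, −0.23 and −0.25 in lists 1 to 4 (−0.24 ± 0.011, SD, n = 4; limma adjusted p = 0.00490). EPHA6 had −0.22, −0.22, −0.23 and −0.21 (−0.22 ± 0.011; limma adjusted p = 0.00841). FAF1, a ubiquitin-pathway protein gene, averaged −0.23 ± 0.047, and ROBO1, the Slit receptor, −0.20 ± 0.032 (limma adjusted p = 0.0135, and 0.0558 without list 4, the only left-out list that ended a call among these 4). All lists were below 0 in each of these 4. PCDH9 averaged −0.19 ± 0.17 and was not called (limma adjusted p = 0.0564). MECOM (−0.090) and RANBP2 (−0.18) were not called either. After centring, PCDH9, MECOM and RANBP2 were each called lower (limma adjusted p = 0.00836, 0.0262 and 0.0159). RANBP2 was instead called higher when peaks in a second span were admitted (0.18, limma adjusted p = 0.0274).

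**Figure D4:**
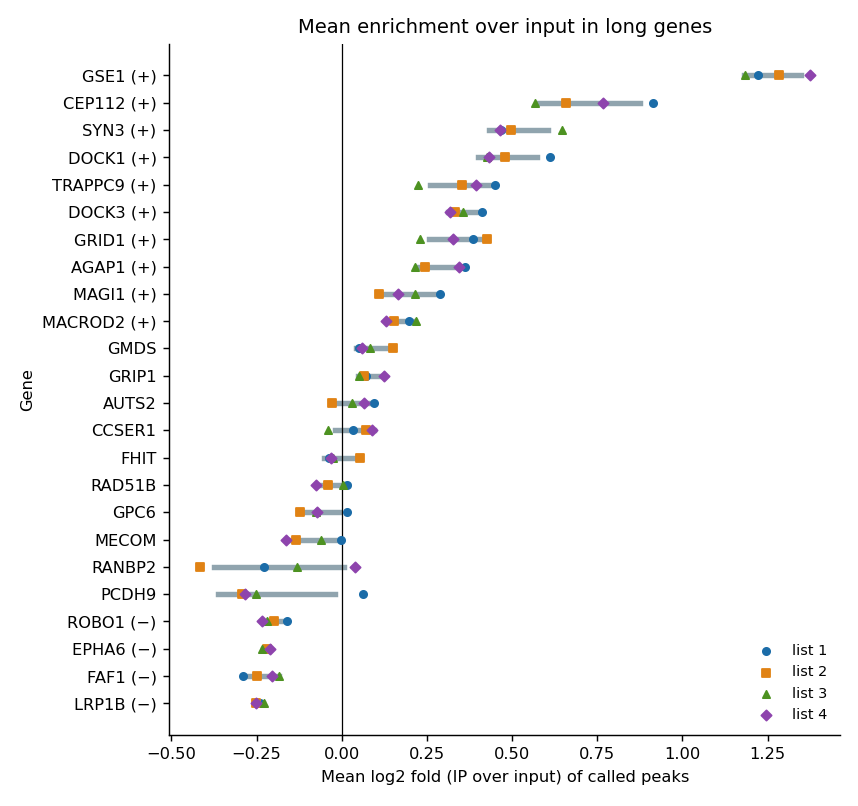
Mean log2 fold of IP over input of the called peaks (x axis) in those long genes named in the text by the gene rule that had at least 20 called peaks in every list (y axis). Points are the 4 lists and grey bars the mean ± SD; (+) marks genes called higher and (−) genes called lower by limma, and GSE1 at 1.27 stands apart from the next gene, CEP112 at 0.73.

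Grouped by role, most tested genes of every list were not called. The 6 lists together with the genes above were drawn up with earlier results of these data known, and their counts are descriptions to be read beside the 34.0% and 9.51% of all tested genes. Of 37 long genes of neuronal and synaptic adhesion, 18 held a member peak and 10 were tested. Among these 10, the teneurin gene TENM4 was higher (0.18 ± 0.035, SD, n = 4) and ROBO1 lower, with a list median of −0.023. Of 30 scaffold and cytoskeleton genes, 28 held a peak and 18 were tested. DOCK1 and MAGI1 were higher and none was lower, with a median of 0.043. Of 16 transcription and chromatin regulators, all held a peak and 9 were tested. The zinc-finger genes TSHZ2 (0.17 ± 0.092) and HIVEP3 (0.18 ± 0.066) were higher, with a median of 0.040. Of 35 genes of kinases, phosphodiesterases, channels and other signalling, 22 held a peak and 16 were tested. Here 3 were higher, among them GRID1 and the phosphodiesterase gene PDE10A (0.19 ± 0.10), and none was lower, with a median of 0.11. Of 24 genes at common fragile sites, 22 held a peak and 15 were tested. Here 2 were higher, MACROD2 among them, and LRP1B was lower, with a median of 0.014. Of 8 RNA-binding protein genes, RBFOX1 among them, 4 held a peak and the 1 tested was not called, at 0.081. The genes with a region enriched in all 4 lists (GSE1, DOCK3, CEP112, GMDS and GRIP1) were in none of the 6 role lists. The role lists therefore do not show which roles hold such regions. Their counts of called genes also leave out GSE1, DOCK3 and CEP112, which were all called higher. TENM4, TSHZ2, HIVEP3 and PDE10A are named because they were called, after their values were seen, and each lost its call without at least 3 of the 4 lists taken singly.

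Along the gene, called peaks were most frequent near the 5′ end. When each span was divided into 10 equal bins from 5′ to 3′, bin 1 held 19.3%, 19.1%, 19.3% and 19.5% of member peaks in lists 1 to 4 (19.3% ± 0.171, SD, n = 4). The share was 13.5% ± 0.280 in bin 2, 6.36% ± 0.186 in bin 9 and 7.07% ± 0.165 in bin 10. Bin 1 exceeded every other in all lists. Of the 116 genes with at least 20 peaks in every list, 90 had over 50% of their peaks before the middle of the span, with a median of 72.1%. EPHA6 (95.9%), GRIP1 (90.1%) and LRP1B (88.9%) were heavily 5′, while ROBO1 had 4.20% there. A RefSeq span can include transcripts that start inside it, and which transcript gave the peaks was not tested.

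Enriched peaks followed another course, which rested on GSE1. The enriched share was 0.106% ± 0.0521 in bin 1, 0.394% ± 0.146 in bin 9 and 2.02% ± 0.151 in bin 10 (SD, n = 4), and in bin 8 it was 0 of 4941 peaks. Bin 10 held 98 of the 182 enriched peaks. The share in bin 10 exceeded that in the rest by 1.89 percentage points ± 0.163, higher in 4 of 4 lists (exact sign-flip permutation test, p = 0.13, the smallest possible). Without GSE1 that difference turned to −0.121, since 0 of 4395 peaks in bin 10 were then enriched (p = 0.13 in the same exact test). The share in bin 1 differed from the rest by −0.198 percentage points ± 0.0670, lower in 4 of 4 lists (exact sign-flip permutation test, p = 0.13), and by −0.0155 without GSE1 (p = 0.625 in the same exact test).

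**Figure D5:**
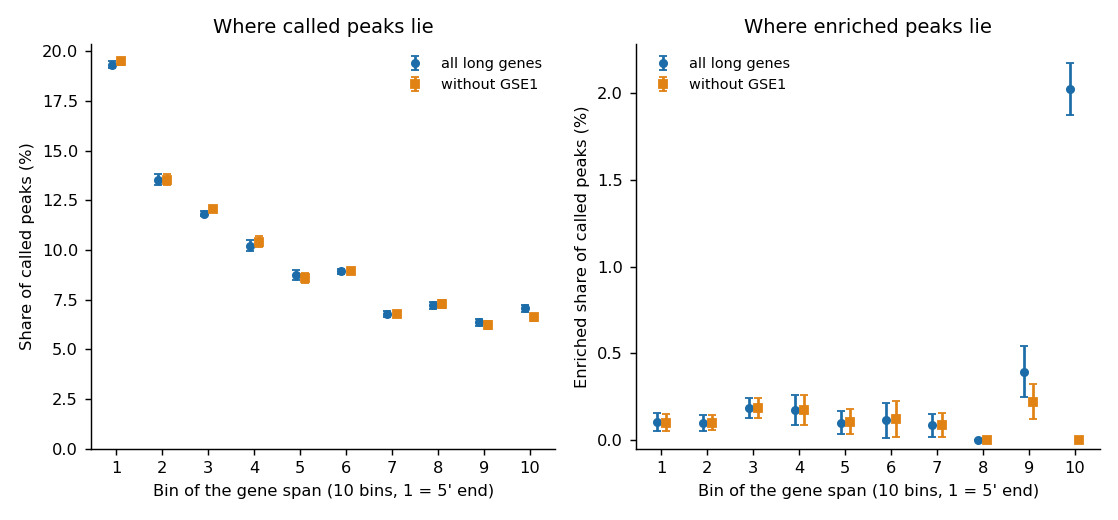
Share of called peaks (%, left) and enriched share of called peaks (%, right) in each of 10 bins of the gene span from 5′ to 3′ (x axis). Points are means of the 4 lists with the SD as error bars, for all long genes and without GSE1; called peaks fall from 19.3% in bin 1, and the enriched share of 2.02% in bin 10 is 0 without GSE1.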

How the data were processed

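RBFOX2 eCLIP peaks of HEK293T cells were analysed from 4 deposited lists, each an IP against the input of its number. Per the submitters' processing notes, UMI-tools 1.1.1, cutadapt 3.2 and STAR 2.7.7a were used, and hg38 and GRCh38.p13 are named. The peak caller, the p-value test and the scaling of IP to input are not given in the sources used here. The lists have no header. From the values, the authors' first deposited value was read as a −log10 p-value, and their second deposited value as a log2 fold of IP over input, both the authors' own. Depth is unknown, so no counting interval is given.

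Peaks were assigned by midpoint to a RefSeq gene table of GRCh38.p14, which has no exons. Gene strand came from the RefSeq promoter table for 251 of 303 genes and otherwise from most of the gene's peaks. There, 10712 peaks of long genes were left out because a second span held the midpoint. Enriched means a log2 fold and a −log10 p of at least 3. Tests over the lists were exact two-sided sign-flip permutations. Regions took, per list, the log2 fold of the peak with the highest −log10 p. Regions and genes (mean log2 fold, at least 20 peaks per list) were tested against 0 with limma 3.58.1 in R 4.3.3 (intercept only, eBayes, Benjamini-Hochberg over all features, 0.05). Python 3.11.15, numpy 2.4.6, pandas 2.3.3 and scipy 1.17.1 were used. On simulated data for 49493 regions, limma recovered 27% of 200 changed regions (0 false calls) and 93.0% of 10000 (387 false calls). For 2935 genes it recovered 99% of 200 changed genes, with 15 false calls. The changed regions were given log2 folds from 2 to 5, and the changed genes log2 folds from 0.5 to 2. Recovery of smaller log2 folds, which most of the called long genes had, was not tested.

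Named genes are those with a region enriched in all 4 lists, the 10 with the most regions enriched in at least 2 lists, the 5 longest, the 5 densest and 3 sparsest in peaks, the 5 highest and 5 lowest by mean log2 fold, and up to 4 members per role list by enriched peaks; 1 of them is not reported here. Members and lists were chosen with earlier results of these data known. Alternatives changed the thresholds, the length limit, the overlap rule, the fit, the centring and the lists used. Leaving out GSE1, and restricting the enriched share to peaks with a −log10 p above 0, were chosen after seeing the data.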

Additional observations from a re-analysis of the deposited data

Results flagged for a closer look

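Of 42 items checked for a list far from the other 3, 3 stood out, and chance alone flags about 1 in 20. The mean log2 fold of FHIT was 0.054 in list 2, the only list above 0, against −0.039, −0.026 and −0.030 in lists 1, 3 and 4. The mean log2 fold of SYN3 was 0.65 in list 3, against 0.47, 0.50 and 0.46 in lists 1, 2 and 4, so its call as higher does not rest on that list alone. The mean log2 fold of PCDH9 was 0.063 in list 1, against −0.29, −0.25 and −0.28 in lists 2 to 4. Without list 1 it was −0.28 and passed the limma test (adjusted p = 0.0114).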

How the results depend on the processing

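The long-minus-shorter differences in enriched share and mean log2 fold kept their sign under every alternative run, but against genes of 100 to 500 kb alone they shrank to −0.193 percentage points and −0.044, and with only peaks of −log10 p above 0 the fold difference was −0.0034 ± 0.060 (SD, n = 4), within the spread of the lists. Without 1 list they ranged from −0.592 to −0.561 percentage points and from −0.11 to −0.097. None of these tests could pass 0.05. The bin 1 difference in enriched share became 0.164 with genes of at least 300 kb, and ranged from −0.222 to −0.169 without 1 list. The bin 10 difference became −0.0380 with genes of at least 1000 kb and −0.121 without GSE1, and ranged from 1.82 to 1.95 without 1 list.

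Of the 13 regions enriched in all lists, 4 were left at a −log10 p of at least 5 and 4 without GSE1. Genes of at least 300 kb gave 29 and genes of at least 1000 kb gave 0. Without 1 list there were 14 to 17. Regions higher numbered 763 (300 kb), 51 (1000 kb) and 0 to 79 without 1 list. Regions lower numbered 39, 2 and 0 to 3 in the same settings, and 18 with other spans allowed. Genes higher numbered 12 with at least 10 peaks in every list, 8 after centring, 53 (300 kb), 2 (1000 kb) and 8 to 12 without 1 list. Genes lower numbered 16 after centring, 14 (300 kb), 2 (1000 kb) and 4 to 5 without 1 list. The length settings change the genes counted; the cause of the other changes was not tested.

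Centring turned AUTS2 (−0.048), CCSER1 (−0.051), GMDS (−0.0025) and GRIP1 (−0.011) below 0. It also gave PCDH9, RANBP2, MECOM and GPC6 a call as lower (limma adjusted p = 0.00836, 0.0159, 0.0262 and 0.0437). With other spans allowed, RANBP2 rose to 0.18 and was called higher (limma adjusted p = 0.0274). In that setting MAGI1 fell to 0.068 and lost its call (limma adjusted p = 0.359). For the 25 named genes, leaving out each list in turn left 87 results on their side of the limma threshold, 2 gained a call and 11 lost one. For the 13 regions, 12 results stayed and 40 lost their call. No paired analysis was possible because the numbers pair an IP only with its input, and every log2 fold is already taken over that input.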

Other observations

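Some enriched peaks of long genes lay where a second annotated span holds the midpoint and so belonged to no comparison above. FRMD4A, a scaffold of cell polarity, had 12 such peaks in 4 lists, in 3 regions of which 1 was enriched in every list, with a mean log2 fold of 4.17. The second span there is LOC105376426. AGAP1 had 10 such peaks in 4 lists under TNRC17, in 5 regions with a mean log2 fold of 3.6, beside the 1 enriched peak counted in the report. ZFHX3, a zinc-finger homeobox gene, had 6 peaks in 3 lists under ZFHX3-AS1 (mean log2 fold 3.81). The adhesion receptor gene ADGRL3 had 5 in 4 lists under LOC124900173 (3.76), and ANXA8 had 1.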
